A study of Homo sapiens with 16 samples.

Results

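The cadherins and protocadherins are calcium-dependent cell-cell adhesion proteins, and their genes were taken from the deposited table as every row whose symbol is CDH, PCDH or PCDHA, PCDHB, PCDHGA, PCDHGB or PCDHGC followed by a number. This rule, which uses no measured value, took 91 of the 61806 genes in the table: 23 cadherins, 11 protocadherins that stand alone in the genome and 57 clustered protocadherins. The clustered genes lie side by side on chromosome 5, with 14 in the alpha, 19 in the beta and 24 in the gamma cluster, pseudogenes included. The genes PCDHAC1 and PCDHAC2 and desmosomal, FAT and other members of the superfamily are outside the rule.

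Poly(A) RNA was sequenced from LX-2, a human stellate cell line made immortal in culture. Stellate cells are the liver cells that lay down scar matrix when activated. There were 4 groups of 4 replicates. Wild-type cells received PBS (WT) or the cytokine TWEAK (100 ng/mL, 2 h). Cells made with CRISPR/Cas9, lacking either Fn14alpha (Fn14alpha KO) or all Fn14 (Fn14 KO), received PBS. Fn14 is the receptor of TWEAK and the product of TNFRSF12A, and Fn14alpha is one isoform of it by the title of the series. All groups were grown in the same low-serum medium for 24 h before the 2 h of treatment. No source used here says if each knockout was cloned or pooled, so the genotype and the derived line cannot be told apart. The design text calls the replicates biological and says no more. The p-values thus measure only the spread between libraries of a group, which may be technical. That spread was estimated over the 4 groups together, so a library outside a comparison can also alter its calls. The comparisons with WT share the WT libraries, and the 2 knockouts are also compared with each other.

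Classical cadherins hold neighbouring cells together by binding the same or a related cadherin on the other cell, and their tails bind catenins, which link them to actin. Type I and type II cadherins differ in the outermost adhesive domain, and mesenchymal cells such as stellate cells are known for N-cadherin (CDH2) and cadherin-11 (CDH11) rather than the epithelial E-cadherin (CDH1). Clustered protocadherins are chosen by separate promoters: each alpha or gamma gene joins its own first exon to constant exons shared by the cluster, while each beta gene is a single coding exon, and the mix of proteins gives a cell a surface identity best known from neurons.

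Levels are given as FPKM (fragments scaled to exon length and to the library total), as mean ± SD of 4 libraries or library by library in the order of replicates 1 to 4. Total counts ran from 13335919 to 16888606 per library. The quasi-likelihood test of edgeR was used, and a gene is said to have risen, fallen or changed when its p adjusted over all 16029 genes tested was under 0.05. TNFRSF12A was at 128 ± 6.29 FPKM in WT and 130 ± 7.07 after TWEAK. It was at 59.3 ± 6.43 FPKM in Fn14alpha KO and 33.6 ± 2.77 FPKM in Fn14 KO cells. A count per gene cannot separate its isoforms or show loss of the protein. WT 4 and Fn14 KO 1 stood apart from the other 14 libraries on principal component 3 (37.0 and 24.5 against −19.9 to 10.4). Of the stellate cell markers, VIM and COL1A1 were the most abundant (means of 259 to 612 and 120 to 196 FPKM), while PDGFRA, DES, LRAT and RGS5 were under 1 FPKM in every library. The list of 12 summed to 560 to 593 FPKM in WT, 742 to 830 with TWEAK, 432 to 453 in Fn14alpha KO and 728 to 771 in Fn14 KO cells. Its members moved unequally: mean COL1A2 was 1.48 FPKM in WT, 0.425 in Fn14alpha KO and 0.16 in Fn14 KO cells, and ACTA2 was 2.83, 1.21 and 2.79. In the same order COL3A1 was at 23.7, 17.9 and 8.33 FPKM and DCN at 3.79, 0.473 and 0.995. TAGLN was at 25.4, 43.2 and 89.8 FPKM and PDGFRB at 1.79, 1.55 and 3.92, both highest in the Fn14 knockout. Of other cell types' markers, the leukocyte list summed to 0.80 to 2.81 FPKM over all libraries, and the hepatocyte list, with TTR at 0 throughout, to 2.26 to 3.12 in the wild type, 1.03 to 1.38 in Fn14alpha KO and 0.26 to 0.73 in Fn14 KO cells. The hepatocyte sums were mostly SERPINA1 (means of 0.422 to 2.75), with ALB, APOA1, APOB, CYP3A4, HNF4A and TF under 1 FPKM in every library. The endothelial list summed to 17.8 to 20.2 FPKM in WT, 17.6 to 20.8 with TWEAK, 21.5 to 23.4 in Fn14alpha KO and 8.49 to 9.45 in Fn14 KO cells, mostly TIE1 (means of 8.42 to 21.8), with CLEC14A at 0 and PECAM1, VWF, KDR and STAB2 under 1 FPKM in every library. The epithelial list summed to 85.6 to 97.0, 74.6 to 77.7, 89.9 to 99.9 and 66.1 to 89.1 FPKM in the same order, mostly KRT18 and KRT8 (means of 42.5 to 58.2 and 19.9 to 32.5), with EPCAM, KRT19 and CLDN4 under 1 FPKM in every library. The part of these lists in the results below was not tested. In these bulk libraries, fewer cells expressing a gene and less RNA per cell cannot be told apart.

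No count in any of the 16 libraries was found for 4 genes: CDH22, PCDH8, PCDH20 and PCDHA14. For CDH22 and PCDH8 this allows up to 0.0124 CPM (counts scaled to the library total) over the 16 libraries together (3 counts, counting error only). In PCDH20 95.8% and in PCDHA14 100% of the exonic bases overlap another gene in GENCODE 29, so a count of 0 sets no limit on their level. Another 34 had counts, at most 103 in all 16 libraries, and were removed by the filter on low counts. These were the cadherins CDH1, CDH5, CDH6, CDH7, CDH8, CDH9, CDH10, CDH16, CDH17, CDH19, CDH20, CDH23 and CDH26, the protocadherins PCDH15 and PCDH19, 10 alpha genes (PCDHA1 to PCDHA6, PCDHA8, PCDHA9, PCDHA12 and PCDHA13), PCDHB1 and PCDHB19P, and 7 gamma genes (PCDHGA2, PCDHGA3, PCDHGA12, PCDHGB7, PCDHGB8P, PCDHGB9P and PCDHGC4). E-cadherin (CDH1) had 7 counts in WT, 7 with TWEAK, 7 in Fn14alpha KO and 19 in Fn14 KO cells, each over 4 libraries. VE-cadherin (CDH5), the cadherin of endothelium, had 2, 4, 0 and 0 counts in the same order. The remaining 53 genes were tested: 9 cadherins, 7 lone protocadherins, 3 alpha, 17 beta and 17 gamma genes. A gene that passed the filter through 1 group only had to be high there, so counts over the 53 describe these genes and not the whole family.

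TWEAK changed 3 of the 53 genes, against 6.87% of all genes tested. Of these, 1 rose (4.82% of all genes) and 2 fell (2.05% of all genes). In the Fn14alpha knockout 30 of the 53 changed from WT, against 42.2% of all genes, with 10 higher (20.0% of all genes) and 20 lower (22.2% of all genes). In the Fn14 knockout 38 of the 53 changed from WT, 7 higher and 31 lower, where 52.9% of all genes changed, 26.6% rose and 26.3% fell. The median log2 fold change of the 53 was 0.00 with TWEAK, −0.08 in Fn14alpha KO and −1.01 in Fn14 KO cells (3 genes at 0 counts there leave this median as it is when set at their smallest possible fall), and the median of all genes tested was within 0.0129 of 0 in each. Scaled by total counts in place of TMM, the Fn14 knockout comparison gave 3 higher and 36 lower of the 53. Of all 16029 genes tested, 8870 then changed. Of these 3189 (36%) were higher, against 50.2% of the changed genes with TMM, so the shift was one of all genes as well. The median of all genes moved to −0.124 (−0.150 between the knockouts). Between the knockouts 36 of the 53 differed, against 59.2% of all genes, with 7 higher (30.7% of all genes) and 29 lower (28.5% of all genes) in the Fn14 knockout. All 4 libraries of Fn14 KO lay below all 4 of Fn14alpha KO for 28 of the 53 and for 32.6% of all genes. Falls of at least 1 on the log2 scale in the Fn14 knockout were found in 27 of the 53 and in 8.72% of all genes, and rises of that size in 1 of the 53 and in 4.20% of all genes. Such falls in the Fn14alpha knockout were found in 9 of the 53 and in 4.52% of all genes. Between the knockouts 23 of the 53 were lower by that much, against 9.28% of all genes, and 5 were higher, against 5.98%.

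Among the cadherins, the abundant type I genes rose in the Fn14alpha knockout, and 3 type II genes fell in both knockouts, 2 of them to at or near 0 in the Fn14 knockout. TWEAK changed 0 of the 9 cadherins by edgeR and 0 by DESeq2, while 2 had an unadjusted p under 0.05 in edgeR (CDH2 and CDH3). Of the 9, 7 changed in Fn14alpha KO (42.2% of all genes) and 6 in Fn14 KO cells (52.9% of all genes). In the Fn14alpha knockout 3 rose (CDH2, CDH4, CDH15) and 4 fell (CDH11, CDH12, CDH18, CDH13). In the Fn14 knockout 1 rose (CDH4) and 5 fell (CDH11, CDH12, CDH18, CDH13, CDH15). The median log2 fold change of the 9 was 0.13, 0.14 and −0.63 in the 3 comparisons with WT.

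N-cadherin (CDH2, chr18:27932879-28177946, minus strand) was the most abundant member in every group. CDH2 was at 15.1, 15.8, 14.5 and 14.9 FPKM in the WT and 17.4, 16.1, 16.1 and 15 in the TWEAK libraries. CDH2 stood at 25, 21.9, 22.4 and 24.2 FPKM in Fn14alpha KO and at 13.6, 15.4, 15.9 and 16.9 in Fn14 KO libraries. All 4 Fn14alpha knockout libraries lay above all 12 others, and CDH2 rose 1.52-fold in the Fn14alpha knockout (log2 fold change 0.60 ± 0.07, adjusted p = 1.31e-07). It was 0.15 ± 0.07 on the log2 scale in the Fn14 knockout (adjusted p = 0.0617), and it was lower there than in the Fn14alpha knockout (log2 fold change −0.45 ± 0.07, adjusted p = 4.21e-06). R-cadherin (CDH4, chr20:61252261-61940617, plus strand), the type I relative that can bind N-cadherin, followed in level in each group. CDH4 was at 10.4, 11.3, 9.92 and 8.9 FPKM in the WT and 10.6, 10.2, 12.2 and 9.54 in the TWEAK libraries. CDH4 stood at 18.3, 16.9, 16.3 and 16.6 FPKM in Fn14alpha KO and at 13.4, 15.1, 15.6 and 15.1 in Fn14 KO libraries. Both knockouts lay wholly above WT, and CDH4 rose 1.64-fold in the Fn14alpha knockout (log2 fold change 0.71 ± 0.08, adjusted p = 8.37e-08) and 1.58-fold in the Fn14 knockout (log2 fold change 0.66 ± 0.08, adjusted p = 1.37e-07). The difference between the knockouts was −0.05 ± 0.08 on the log2 scale (adjusted p = 0.603). All 4 libraries of a group lay above all 4 of WT for 21.2% of all genes in the Fn14alpha knockout and for 16.1% in the Fn14 knockout.

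M-cadherin (CDH15, chr16:89171748-89195492, plus strand), the cadherin of muscle satellite cells, was low. CDH15 was at 0.0603, 0.115, 0.0272 and 0.067 FPKM in the WT and 0.0854, 0.0428, 0.0543 and 0.0645 in the TWEAK libraries. CDH15 stood at 0.211, 0.188, 0.195 and 0.245 FPKM in Fn14alpha KO and at 0.0288, 0, 0.0305 and 0.0135 in Fn14 KO libraries. The Fn14alpha knockout libraries were the highest of the 16, and CDH15 rose 2.96-fold in the Fn14alpha knockout (log2 fold change 1.57 ± 0.39, adjusted p = 0.00215). Its 5 counts in the Fn14 knockout gave a fall 3.35-fold in the Fn14 knockout (log2 fold change −1.74 ± 0.62, adjusted p = 0.0216), whose call was lost without WT 2, Fn14 KO 2 or Fn14 KO 4 (log2 fold change −1.64 to −1.33) and with no filter on low counts or limma on log2(FPKM + 1) (adjusted p 0.0644 and 0.0602). Its 50 nearest tested genes that are not members, 25 on each side over 2.54 Mb, had a median log2 fold change of 0.24 in Fn14alpha KO and −0.61 in Fn14 KO cells, where 37 of the 50 fell, and the part of this stretch in the result was not tested. P-cadherin (CDH3) was at 0.0465 to 0.119 FPKM in the 4 groups and changed in no comparison.

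Cadherin-18, cadherin-12 and cadherin-11 are type II cadherins, and the genes of the first pair lie on the short arm of chromosome 5. CDH18 was at 1.06, 1.36, 0.966 and 1.32 FPKM in the WT and 0.907, 1.23, 0.924 and 0.925 in the TWEAK libraries. CDH18 stood at 0.0907, 0.0898, 0.15 and 0.0413 FPKM in Fn14alpha KO and at 0, 0.00939, 0 and 0 in Fn14 KO libraries. CDH18 (chr5:19471296-20575873, minus strand) was thus below all 8 wild-type libraries in every knockout library. It fell 12.8-fold in the Fn14alpha knockout (log2 fold change −3.68 ± 0.24, adjusted p = 1.47e-11), and the 1 count in the Fn14 knockout against 483 in WT gave a ratio of 0.00213 (95% exact interval 5.37e-05 to 0.0119, adjusted p = 9e-14). CDH12 was at 0.719, 0.744, 0.549 and 0.617 FPKM in the WT and 0.737, 0.669, 0.838 and 0.65 in the TWEAK libraries. CDH12 stood at 0.0116, 0.0129, 0.0247 and 0 FPKM in Fn14alpha KO and at 0 in all 4 in Fn14 KO libraries. CDH12 (chr5:21750673-22853344, minus strand) fell 49.2-fold in the Fn14alpha knockout (log2 fold change −5.62 ± 0.37, adjusted p = 1.02e-10). That size rests on 4 counts against 234 in WT, with no interval for counting error made for it. With 0 counts in the Fn14 knockout, CDH12 was at least 76.0-fold lower there than in WT (3 counts over the group, adjusted p = 1.57e-11). The neighbouring type II genes CDH10 and CDH9 on the same arm were too low to test: CDH10 had 43 counts in WT, 25 with TWEAK, 2 in Fn14alpha KO and 0 in Fn14 KO cells, and CDH9 had 13, 5, 6 and 0. The 50 nearest tested genes around CDH12, which are not members, had a median log2 fold change of −0.36 in Fn14alpha KO and 0.01 in Fn14 KO cells, with 28 and 13 of the 50 lower.

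Cadherin-11 (CDH11, chr16:64943753-65126112, minus strand), the cadherin of mesenchymal and fibroblast-like cells, was also low in the knockouts. CDH11 was at 0.639, 0.477, 0.529 and 0.516 FPKM in the WT and 0.627, 0.6, 0.523 and 0.463 in the TWEAK libraries. CDH11 stood at 0.0788, 0.0164, 0.0367 and 0.0656 FPKM in Fn14alpha KO and at 0.0504, 0.106, 0.107 and 0.0709 in Fn14 KO libraries. No knockout library reached the lowest wild-type library, and CDH11 fell 10.8-fold in the Fn14alpha knockout (log2 fold change −3.44 ± 0.25, adjusted p = 1.02e-10) and 5.92-fold in the Fn14 knockout (log2 fold change −2.57 ± 0.23, adjusted p = 1.26e-09). Its higher level in the Fn14 than in the Fn14alpha knockout (log2 fold change 0.87 ± 0.34, adjusted p = 0.0294) was lost without Fn14alpha KO 2 or 3 or Fn14 KO 2 or 3 (0.60 to 0.74), and with total counts, both limma fits, on log2(FPKM + 0.1) and log2(FPKM + 1), or a fit of the 2 groups alone (adjusted p 0.0681 to 0.395). CDH24 (chr14:23047062-23057538, minus strand), the fourth type II gene tested, kept to a narrow band. CDH24 was at 10.3, 8.82, 9.81 and 8.17 FPKM in the WT and 7.95, 9.45, 9.26 and 9.04 in the TWEAK libraries. CDH24 stood at 10.6, 11, 10.2 and 9.94 FPKM in Fn14alpha KO and at 7.45, 7.64, 9.24 and 8.04 in Fn14 KO libraries. The groups overlapped with WT in each case, and CDH24 passed the test only between the knockouts (log2 fold change −0.22 ± 0.09, adjusted p = 0.0309), a call lost without Fn14alpha KO 1 or 2 or Fn14 KO 1, 2 or 4 (−0.22 to −0.18) and with no filter (adjusted p = 0.0795). T-cadherin (CDH13, chr16:82626965-83800640, plus strand), which has no tail inside the cell and is anchored by a lipid, was intermediate in level. CDH13 was at 4.56, 4.45, 3.9 and 2.85 FPKM in the WT and 3.87, 4.64, 4.64 and 4.09 in the TWEAK libraries. CDH13 stood at 3.18, 2.67, 2.67 and 3.14 FPKM in Fn14alpha KO and at 1.34, 2.34, 2.77 and 2.94 in Fn14 KO libraries. WT 4 was the lowest WT library and Fn14 KO 1 the lowest of all, and the groups overlapped. CDH13 fell 1.55-fold in the Fn14 knockout (log2 fold change −0.63 ± 0.17, adjusted p = 0.00485), and its fall 1.38-fold in the Fn14alpha knockout (log2 fold change −0.46 ± 0.17, adjusted p = 0.0362) was lost without WT 1, 2 or 3 or Fn14alpha KO 2 or 3 (−0.47 to −0.39). It was also lost by DESeq2, with total counts, with no filter and in both limma fits (−0.48 to −0.32, adjusted p 0.0554 to 0.128).

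**Figure D1:**
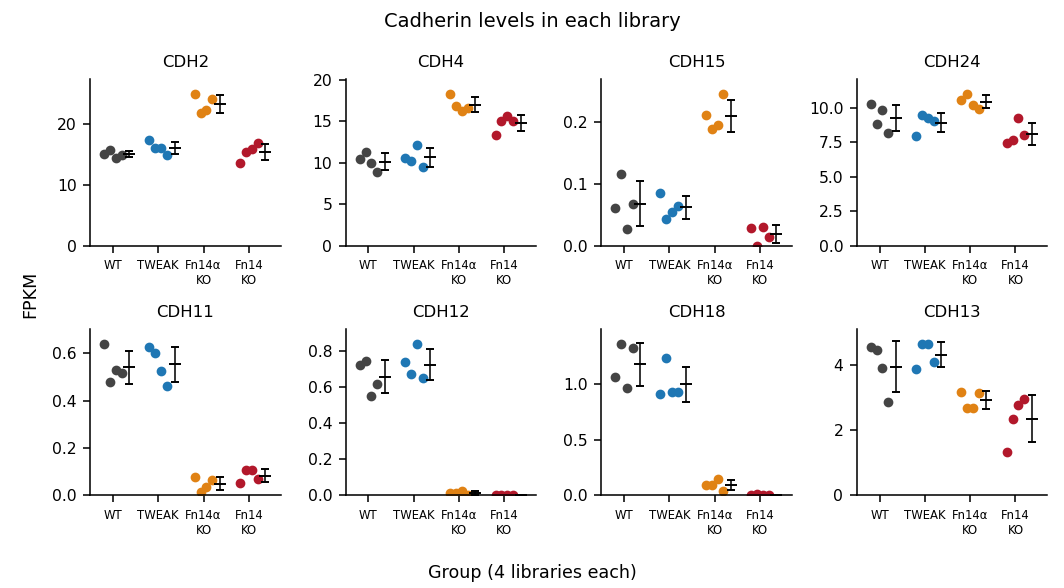
FPKM of 8 tested cadherins on the vertical axis (linear, from 0) by group on the horizontal axis, with 1 point per library in the order of replicates 1 to 4 and a bar for mean ± SD (n = 4). CDH11, CDH12 and CDH18 were lower in every knockout library than in every wild-type library, while CDH2 stood at 23.4 FPKM in Fn14alpha KO and at 15.1 to 16.1 in the other groups.

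The protocadherins that stand alone in the genome act as adhesion and signalling proteins, and those of the delta group carry a conserved tail that recruits actin regulators. Of the 7 tested, 6 changed in each knockout, against 42.2% of all genes in the Fn14alpha and 52.9% in the Fn14 knockout: 2 rose and 4 fell in the Fn14alpha knockout, and 1 rose and 5 fell in the Fn14 knockout, with median log2 fold changes of −0.25 and −1.15. TWEAK lowered PCDH18 and PCDH9, and the median was −0.37. PCDH8 and PCDH20 had no counts and PCDH15 and PCDH19 had 1 and 2 counts in all libraries.

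PCDH17 (chr13:57631744-57729311, plus strand) changed the most of the 7 in the Fn14 knockout. PCDH17 was at 1.98, 1.94, 1.82 and 1.62 FPKM in the WT and 1.8, 1.61, 1.74 and 1.31 in the TWEAK libraries. PCDH17 stood at 0.491, 0.399, 0.415 and 0.287 FPKM in Fn14alpha KO and at 0, 0, 0.0169 and 0.015 in Fn14 KO libraries. The Fn14alpha knockout libraries lay below all wild-type libraries and the Fn14 knockout libraries at 0 or 0.0169 at most. It fell 4.71-fold in the Fn14alpha knockout (log2 fold change −2.23 ± 0.15, adjusted p = 4.13e-11), and 4 counts in the Fn14 knockout against 971 in WT gave a fall 195-fold in the Fn14 knockout (log2 fold change −7.61 ± 0.30, adjusted p = 5.42e-16). The size of that last fall rests on 4 counts and is uncertain, and no interval for counting error was made for it. The 50 nearest tested genes that are not members did the opposite in the Fn14 knockout, with a median log2 fold change of 0.56 and 36 of the 50 higher. PCDH9 (chr13:66302834-67230445, minus strand), on the same arm of chromosome 13, was the only lone protocadherin to rise in both knockouts. PCDH9 was at 0.158, 0.153, 0.151 and 0.157 FPKM in the WT and 0.0983, 0.0858, 0.12 and 0.0751 in the TWEAK libraries. PCDH9 stood at 0.247, 0.254, 0.223 and 0.214 FPKM in Fn14alpha KO and at 0.379, 0.463, 0.477 and 0.57 in Fn14 KO libraries. The 4 groups did not overlap. PCDH9 rose 1.48-fold in the Fn14alpha knockout (log2 fold change 0.56 ± 0.14, adjusted p = 0.00219) and 3.3-fold in the Fn14 knockout (log2 fold change 1.72 ± 0.13, adjusted p = 8.3e-11), where 35 of its 50 neighbours rose with a median of 0.54. It fell 1.56-fold with TWEAK (log2 fold change −0.64 ± 0.16, adjusted p = 0.0126), a call lost without TWEAK 2 or TWEAK 4 (−0.59 to −0.55) and in both limma fits (adjusted p 0.0753 and 0.227).

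PCDH10 (chr4:133149294-133208606, plus strand) moved in opposite directions in the knockouts. PCDH10 was at 0.64, 0.762, 0.715 and 0.618 FPKM in the WT and 0.552, 0.515, 0.645 and 0.56 in the TWEAK libraries. PCDH10 stood at 1.24, 0.993, 1.01 and 1.23 FPKM in Fn14alpha KO and at 0.0986, 0.102, 0.181 and 0.136 in Fn14 KO libraries. Every Fn14alpha knockout library was above and every Fn14 knockout library below the 8 wild-type libraries. PCDH10 rose 1.6-fold in the Fn14alpha knockout (log2 fold change 0.68 ± 0.13, adjusted p = 0.000143) and fell 4.9-fold in the Fn14 knockout (log2 fold change −2.29 ± 0.17, adjusted p = 7.74e-11), and the difference between the knockouts was 7.84-fold (log2 fold change −2.97 ± 0.17, adjusted p = 2.27e-13). PCDH18 (chr4:137518918-137532494, minus strand), on the same arm of chromosome 4, was lower with TWEAK and in the Fn14alpha knockout. PCDH18 was at 0.419, 0.434, 0.369 and 0.345 FPKM in the WT and 0.089, 0.119, 0.189 and 0.191 in the TWEAK libraries. PCDH18 stood at 0.127, 0.0762, 0.0729 and 0.0902 FPKM in Fn14alpha KO and at 0.14, 0.337, 0.255 and 0.244 in Fn14 KO libraries. The TWEAK and Fn14alpha knockout libraries were all below the lowest WT library. PCDH18 fell 2.56-fold with TWEAK (log2 fold change −1.35 ± 0.27, adjusted p = 0.00145), where 27 of all genes tested, 0.168%, fell as far as 1 on the log2 scale, and it fell 4.3-fold in the Fn14alpha knockout (log2 fold change −2.10 ± 0.29, adjusted p = 2.57e-06). It was −0.56 ± 0.24 on the log2 scale in the Fn14 knockout (adjusted p = 0.0596). The 50 nearest tested genes around PCDH18, which are not members, had a median log2 fold change of −0.26 in Fn14alpha KO and −0.38 in Fn14 KO cells. Of these, 25 and 29 were lower and 1 and 3 higher. Around PCDH10 the medians were −0.26 and −0.38, with 25 and 28 lower and 1 and 3 higher. The part of these stretches in the results was not tested.

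PCDH7 (chr4:30720369-31146805, plus strand) was the most abundant of the lone protocadherins. PCDH7 was at 2.6, 2.77, 2.38 and 2.36 FPKM in the WT and 2.04, 2.34, 2.35 and 2.03 in the TWEAK libraries. PCDH7 stood at 2.19, 2.1, 1.99 and 2.43 FPKM in Fn14alpha KO and at 1.08, 1.1, 0.918 and 1.09 in Fn14 KO libraries. The Fn14 knockout libraries were the lowest 4 of the 16, and PCDH7 fell 2.22-fold in the Fn14 knockout (log2 fold change −1.15 ± 0.09, adjusted p = 9.89e-11). Its smaller fall 1.19-fold in the Fn14alpha knockout (log2 fold change −0.25 ± 0.08, adjusted p = 0.0195) was lost without WT 2 or Fn14alpha KO 2 or 3 (−0.23 to −0.20) and in both limma fits (adjusted p 0.0801 and 0.0591). PCDH1 and PCDH12 lie within 1 Mb beyond the gamma cluster on chromosome 5. PCDH1 was at 0.485, 0.5, 0.459 and 0.504 FPKM in the WT and 0.279, 0.526, 0.266 and 0.38 in the TWEAK libraries. PCDH1 stood at 0.662, 0.712, 0.658 and 0.532 FPKM in Fn14alpha KO and at 0.113, 0.0617, 0.228 and 0.106 in Fn14 KO libraries. PCDH1 fell 3.58-fold in the Fn14 knockout (log2 fold change −1.84 ± 0.28, adjusted p = 6.4e-06) and was 0.36 ± 0.22 on the log2 scale in the Fn14alpha knockout (adjusted p = 0.198). PCDH12 was at 0.298, 0.291, 0.248 and 0.285 FPKM in the WT and 0.216, 0.141, 0.145 and 0.196 in the TWEAK libraries. PCDH12 stood at 0.0748, 0.167, 0.125 and 0.132 FPKM in Fn14alpha KO and at 0.131, 0.189, 0.058 and 0.103 in Fn14 KO libraries. PCDH12, a protocadherin first described in endothelium, fell 2.3-fold in the Fn14alpha knockout (log2 fold change −1.20 ± 0.30, adjusted p = 0.0021) and 2.11-fold in the Fn14 knockout (log2 fold change −1.08 ± 0.29, adjusted p = 0.0035), with all knockout libraries below WT.

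**Figure D2:**
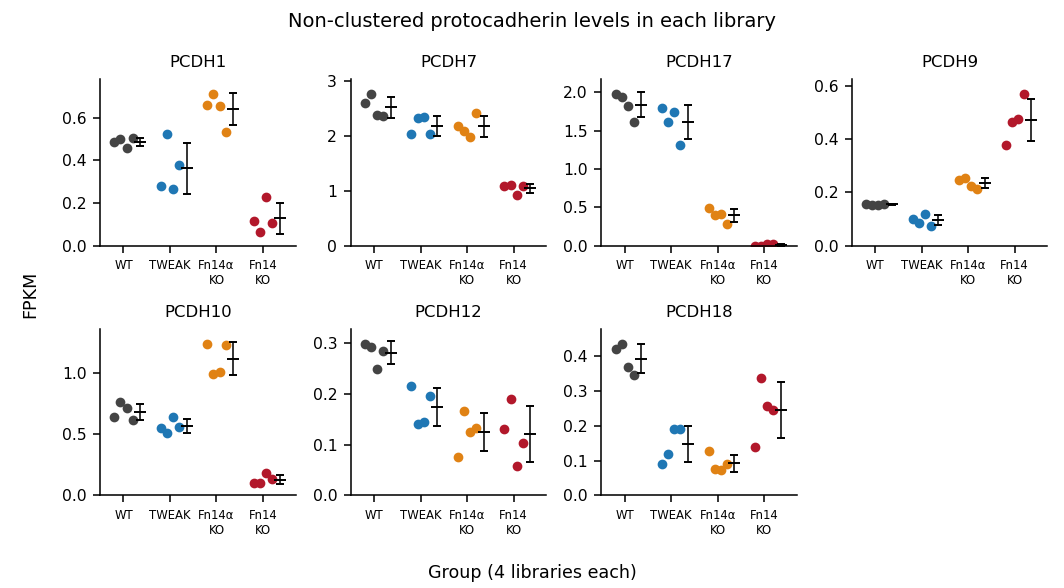
FPKM of the 7 tested lone protocadherins on the vertical axis (linear, from 0) by group on the horizontal axis, 1 point per library and a bar for mean ± SD (n = 4). Mean PCDH17 was 1.84 FPKM in WT, 0.398 in Fn14alpha KO and 0.00797 in Fn14 KO cells, and PCDH9 rose from 0.155 to 0.235 and 0.472.

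Of the 37 clustered genes tested, TWEAK changed 1, against 6.87% of all genes. In the Fn14alpha knockout 17 changed (5 higher, 12 lower), against 42.2% of all genes (20.0% higher, 22.2% lower). In the Fn14 knockout 26 changed (5 higher, 21 lower), against 52.9% of all genes. In the Fn14 knockout 3 of 3 tested alpha genes fell, 13 of 17 beta genes fell and 2 rose, and 5 of 17 gamma genes fell and 3 rose, against 26.3% of all genes lower and 26.6% higher. Of the alpha genes, PCDHA10 and PCDHA11 had 0 counts in the Fn14 knockout and could pass the filter on low counts only through other groups. The alpha count is thus largely set by the filter and says nothing on the cluster. No test compared the clusters, and their sums are a description. Summed over its genes, the alpha cluster was at 3.50 ± 0.52 CPM in WT, 3.26 ± 1.31 with TWEAK, 4.56 ± 0.46 in Fn14alpha KO and 0.404 ± 0.15 in Fn14 KO cells. The beta cluster was at 172 ± 13.3, 165 ± 10, 145 ± 7.30 and 71.6 ± 4.59 CPM, and the gamma cluster at 117 ± 28.1, 125 ± 12.4, 108 ± 7.25 and 82.6 ± 18.7. For the alpha and beta sums all 4 Fn14 knockout libraries lay below the other 12, while for gamma the lowest WT library (WT 4, 77.3) lay among the Fn14 knockout libraries (54.7 to 94.6). The 50 nearest tested genes outside the clusters had a median log2 fold change of −0.09 around PCDHB8 in the Fn14 knockout, with 13 lower and 9 higher.

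Counting limits differ between the clusters, because shared exons make a read hard to give to 1 gene. In the median alpha gene 50.6% of the exonic bases overlap another gene, in the median gamma gene 43.8%, and in the median beta gene 3.50%. Stretches of 75 bases found in another member make up a median 52.1% of alpha, 42.4% of gamma and 8.44% of beta transcripts, and 0 of cadherin and lone protocadherin transcripts. The FPKM of an alpha or gamma gene is set over all its exons, shared ones included, so its level is uncertain, and values of single genes within a cluster are best read between groups.

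The 3 alpha genes tested were all under 0.2 FPKM in every library. PCDHA7 was at 0.0968, 0.092, 0.153 and 0.151 FPKM in the WT and 0.0228, 0.172, 0.0327 and 0.0777 in the TWEAK libraries. PCDHA7 stood at 0.0451, 0.113, 0.12 and 0.139 FPKM in Fn14alpha KO and at 0.0347, 0.021, 0.0368 and 0.0325 in Fn14 KO libraries. PCDHA7 fell 3.56-fold in the Fn14 knockout (log2 fold change −1.83 ± 0.54, adjusted p = 0.00636). PCDHA10 was at 0.0313, 0.0378, 0.0363 and 0.0358 FPKM in the WT libraries, 0.0211, 0.0424, 0.0121 and 0.0574 with TWEAK, 0.0459, 0.0418, 0.04 and 0.0556 in Fn14alpha KO and 0 in all 4 in Fn14 KO libraries. PCDHA11 was at 0.0446, 0.0283, 0.0201 and 0.0891 FPKM in the WT libraries, 0.116, 0.127, 0.01 and 0.0358 with TWEAK, 0.135, 0.116, 0.0554 and 0.0746 in Fn14alpha KO and 0 in all 4 in Fn14 KO libraries. PCDHA10 and PCDHA11 had 0 counts in the Fn14 knockout, against 35 and 18 in WT, so both passed the filter through other groups alone. PCDHA10 was at least 11.4-fold lower in the Fn14 knockout than in WT (3 counts over the group, adjusted p = 1.72e-05). PCDHA11 was at least 5.84-fold lower (adjusted p = 0.00436). With limma on log2(FPKM + 1), which compresses levels this low, both calls were lost (adjusted p 0.0585 and 0.172), and that of PCDHA11 also on log2(FPKM + 0.1) (0.0578). With TWEAK and in the Fn14alpha knockout 0 of the 3 changed by edgeR, 0 by DESeq2 and 0 had an unadjusted p under 0.05, and the 14 alpha genes together had 222 counts in WT, 192 with TWEAK, 266 in Fn14alpha KO and 25 in Fn14 KO cells. Between the knockouts all 3 were lower in the Fn14 knockout, and the call of PCDHA7 was lost without Fn14alpha KO 4 or Fn14 KO 2 (−1.40 to −1.38). The 10 alpha genes removed by the filter had between 8 and 87 counts each, and PCDHA1, PCDHA2, PCDHA8, PCDHA9, PCDHA12 and PCDHA13 had none in the Fn14 knockout.

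The beta genes are read here from PCDHB1, the first on the chromosome, to PCDHB15, the last, over chr5:141051374-141249365 (GRCh38, plus strand). In the Fn14 knockout 13 of the 17 tested fell (26.3% of all genes), 2 rose (26.6% of all genes) and 2 did not pass. The median log2 fold change there was −1.62. In the Fn14alpha knockout 8 fell (22.2% of all genes) and 1 rose (20.0% of all genes), with a median of −0.29. With TWEAK 1 rose (4.82% of all genes), with a median of −0.04. All 4 libraries of the Fn14 knockout lay below all 4 of WT for 14 of the 17 genes and for 28.5% of all genes tested. The change in the Fn14 knockout went with position: the 11 tested genes from PCDHB2 to PCDHB10 all fell, with log2 fold changes of −7.16 to −1.43, whereas the 6 from PCDHB11 to PCDHB15 ranged from −1.23 to 0.49, with 2 lower and 2 higher. This border was chosen after the values were seen and is a description. Summed, the genes up to PCDHB10 were at 121 ± 9.86 CPM in WT, 120 ± 8.99 with TWEAK, 108 ± 6.09 in Fn14alpha KO and 25.7 ± 1.29 in Fn14 KO cells, while those from PCDHB11 on were at 50.8 ± 3.44, 45.6 ± 1.92, 37.1 ± 1.58 and 45.9 ± 4.06. Across the 17 genes, Spearman's rho between start position and log2 fold change was 0.73 in the Fn14 knockout (Pearson's r 0.48), −0.16 in the Fn14alpha knockout and −0.34 with TWEAK, over genes that share libraries and neighbouring sequence.

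**Figure D3:**
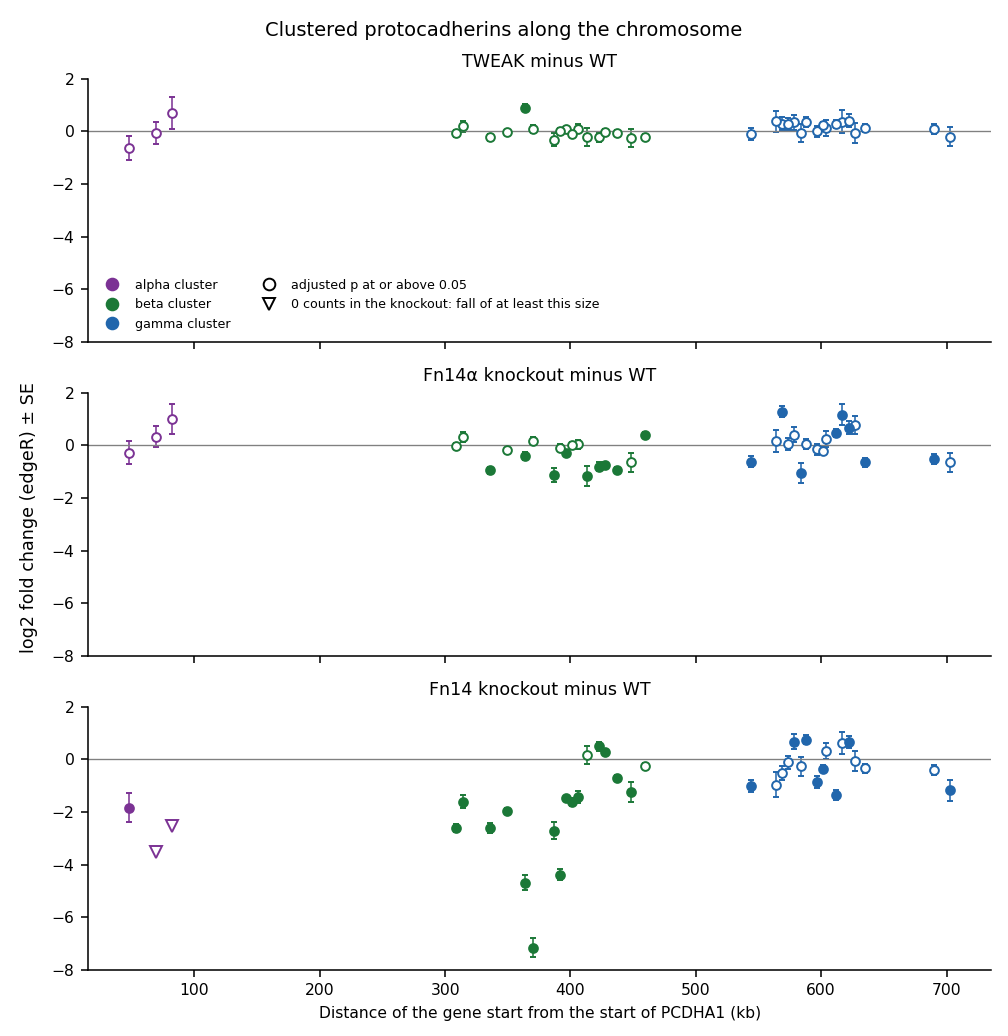
Log2 fold change ± SE (edgeR) on the vertical axis against the distance of a gene's start from that of PCDHA1 in kb on the horizontal axis for the 37 tested clustered genes, 1 panel per comparison with WT, filled where the adjusted p was under 0.05. Open triangles are PCDHA10 and PCDHA11, with 0 counts in the Fn14 knockout, drawn at their smallest possible fall, and the beta genes up to PCDHB10 lie between −7.16 and −1.43 in the Fn14 knockout panel.

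Promoter sequences were read from RefSeq (GRCh38.p14) for 66 of the 91 members, 14 of them beta genes, as 250 bases before to 50 after the start. Protocadherin cluster promoters are known for a conserved element with a CGCT core, where the insulator protein CTCF binds. The 9 letters GGTGGCGCT, searched on both strands and chosen after the sequences were seen, stood in 13 of the 14 beta promoters (92.9%), PCDHB1 being the exception, in 0 of 11 alpha and 0 of 20 gamma promoters, and in 0.501% of all 35116 promoters of the same length. A looser form, GGNGNCGCT with N for any base, stood in 13 of 14 beta, 9 of 20 gamma and 1 of 11 alpha promoters. Of all promoters, 8.77% held it. The shorter core CGCT, which both forms hold, stood in 14 of 14 beta, 20 of 20 gamma and 10 of 11 alpha promoters. Its share of all promoters was 70.0%. The element is shown for beta genes that fell in the Fn14 knockout (PCDHB2, PCDHB4, PCDHB5 and PCDHB8) and for those that did not (PCDHB12, PCDHB13 and PCDHB15), plus strand, with the 9 letters in capitals. They lie at chr5:141094548-141094570, chr5:141121727-141121749, chr5:141135183-141135205, chr5:141177781-141177803, chr5:141208647-141208669, chr5:141213869-141213891 and chr5:141245318-141245340 in that order.
PCDHB2: gacgcggGGTGGCGCTgcagcct
PCDHB4: gacgcagGGTGGCGCTgcaggct
PCDHB5: gacgcctGGTGGCGCTgcaggct
PCDHB8: gacccgtGGTGGCGCTgcaggat
PCDHB12: gacgcgtGGTGGCGCTgcaggat
PCDHB13: gacgcgtGGTGGCGCTgcaggat
PCDHB15: aacgcatGGTGGCGCTgcaggct
The search fixed the 9 letters, and around them the 23 bases of PCDHB12 and PCDHB13 were identical.

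PCDHB8 and PCDHB13 had the most alike promoters among the 78 pairs of beta promoters that hold the element: aligned on it without gaps, they were 93.8% identical over 259 bases, against 44.2% for the next pair and a median of 34.2%. They are printed for the 150 bases that lead to the element and the element itself, plus strand, PCDHB8 at chr5:141177638-141177796 and PCDHB13 at chr5:141213726-141213884.
PCDHB8: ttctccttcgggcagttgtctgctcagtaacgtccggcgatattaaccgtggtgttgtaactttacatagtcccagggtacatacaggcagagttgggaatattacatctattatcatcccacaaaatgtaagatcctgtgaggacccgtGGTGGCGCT
PCDHB13: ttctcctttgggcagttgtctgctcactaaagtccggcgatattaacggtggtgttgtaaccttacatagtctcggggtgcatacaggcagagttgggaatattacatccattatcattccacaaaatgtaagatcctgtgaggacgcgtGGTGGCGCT
These stretches of 159 bases differ at 11 positions. The genes behind them parted in the Fn14 knockout. PCDHB8 was at 4.03, 4.93, 3.86 and 3.44 FPKM in the WT and 3.87, 4.66, 3.79 and 3.33 in the TWEAK libraries. PCDHB8 stood at 4.37, 3.76, 3.93 and 3.68 FPKM in Fn14alpha KO and at 0.219, 0.155, 0.129 and 0.205 in Fn14 KO libraries. PCDHB8 fell 20.8-fold in the Fn14 knockout (log2 fold change −4.38 ± 0.20, adjusted p = 4.69e-15), with every Fn14 knockout library at 0.219 FPKM or below, and was −0.08 ± 0.12 on the log2 scale in the Fn14alpha knockout (adjusted p = 0.622). PCDHB13 was at 3.83, 3.79, 3.4 and 3.11 FPKM in the WT and 3.04, 3.51, 3.39 and 3.54 in the TWEAK libraries. PCDHB13 stood at 1.83, 2.1, 2.19 and 2.56 FPKM in Fn14alpha KO and at 3.6, 3.69, 4.42 and 4.07 in Fn14 KO libraries. PCDHB13 rose 1.21-fold in the Fn14 knockout (log2 fold change 0.28 ± 0.10, adjusted p = 0.0215) with overlapping groups, a call lost without WT 3, WT 4 or Fn14 KO 3 (0.21 to 0.26), with total counts (0.16) and in both limma fits (0.16 and 0.13), and it fell 1.66-fold in the Fn14alpha knockout (log2 fold change −0.73 ± 0.10, adjusted p = 3.9e-06), with all Fn14alpha knockout libraries below WT. Their transcripts share stretches of 75 bases, 25.1% of those of PCDHB8 and 13.4% of those of PCDHB13, so reads from these could be given to either gene.

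Within the stretch up to PCDHB10, the members differed in the size of the fall. PCDHB17P, a pseudogene of the cluster, and PCDHB6 went lowest. PCDHB17P was at 2.4, 1.99, 2 and 1.81 FPKM in the WT and 1.68, 2.51, 2.35 and 1.76 in the TWEAK libraries. PCDHB17P stood at 2.45, 2.4, 2.14 and 2.47 FPKM in Fn14alpha KO and at 0.0218, 0.0199, 0 and 0 in Fn14 KO libraries. PCDHB17P had 2 counts in the Fn14 knockout against 394 in WT, a ratio of 0.00521 (95% exact interval 0.000629 to 0.019, adjusted p = 4.07e-14), and it was 0.18 ± 0.14 on the log2 scale in the Fn14alpha knockout (adjusted p = 0.343). PCDHB6 was at 1.39, 1.5, 1.55 and 1.43 FPKM in the WT and 2.5, 2.9, 2.68 and 2.53 in the TWEAK libraries. PCDHB6 stood at 1.21, 1.01, 1.08 and 1.24 FPKM in Fn14alpha KO and at 0.0414, 0.0566, 0 and 0.0971 in Fn14 KO libraries. The TWEAK libraries of PCDHB6 lay above all others and those of the Fn14 knockout below. PCDHB6 was the only clustered gene that rose after treatment, 1.88-fold with TWEAK (log2 fold change 0.91 ± 0.14, adjusted p = 0.000106), and it fell 25.7-fold in the Fn14 knockout (log2 fold change −4.68 ± 0.28, adjusted p = 9.67e-13). All 4 TWEAK libraries were above all 4 WT libraries for 5.79% of all genes. Its fall 1.32-fold in the Fn14alpha knockout (log2 fold change −0.40 ± 0.16, adjusted p = 0.0466) was lost with the replicate number as a block, with total counts, with no filter and with limma on log2(FPKM + 0.1) (adjusted p 0.069 to 0.0939 in these 4), and on leaving out any 1 of 13 libraries: WT 1 to 4, TWEAK 1 to 4, Fn14alpha KO 1 to 4 or Fn14 KO 2 (−0.44 to −0.35).

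PCDHB5 and PCDHB16 were the most abundant beta genes in WT. PCDHB5 was at 9.1, 8.99, 8.11 and 6.92 FPKM in the WT libraries, 7.21, 8.91, 7.4 and 7.83 with TWEAK, 7.99, 7.32, 7.09 and 7.57 in Fn14alpha KO and 1.84, 1.89, 2.04 and 2.13 in Fn14 KO libraries. PCDHB16 was at 7.81, 8.45, 7.81 and 6.39 FPKM in the WT libraries, 8.06, 8.09, 7.54 and 7.23 with TWEAK, 6.94, 5.63, 6.47 and 6.39 in Fn14alpha KO and 2.04, 2.65, 2.77 and 2.61 in Fn14 KO libraries. Both had all Fn14 knockout libraries below the rest. PCDHB5 fell 3.85-fold in the Fn14 knockout (log2 fold change −1.95 ± 0.10, adjusted p = 7.43e-14) and was −0.17 ± 0.09 on the log2 scale in the Fn14alpha knockout (adjusted p = 0.116). PCDHB16 fell 2.79-fold in the Fn14 knockout (log2 fold change −1.48 ± 0.10, adjusted p = 1.42e-11), and its fall 1.22-fold in the Fn14alpha knockout (log2 fold change −0.29 ± 0.09, adjusted p = 0.0148) was lost without WT 2 or Fn14alpha KO 2 (−0.24) and with limma on log2(FPKM + 0.1) (adjusted p = 0.0507). PCDHB2, PCDHB3, PCDHB9 and PCDHB10 fell in the Fn14 knockout and did not pass the test in the Fn14alpha knockout. PCDHB2 was at 3.27, 2.92, 3.75 and 3.16 FPKM in the WT libraries, 3.16, 3.08, 3.03 and 2.63 with TWEAK, 3.35, 3.64, 2.89 and 3.37 in Fn14alpha KO and 0.686, 0.55, 0.312 and 0.429 in Fn14 KO libraries. PCDHB3 was at 0.606, 0.618, 0.679 and 0.761 FPKM in the WT libraries, 0.552, 0.831, 0.771 and 0.782 with TWEAK, 1.01, 0.824, 0.789 and 0.759 in Fn14alpha KO and 0.239, 0.145, 0.127 and 0.281 in Fn14 KO libraries. In both genes every Fn14 knockout library was below the other 12. PCDHB2 fell 6.06-fold in the Fn14 knockout (log2 fold change −2.60 ± 0.16, adjusted p = 1.28e-12), and PCDHB3 3.07-fold in the Fn14 knockout (log2 fold change −1.62 ± 0.25, adjusted p = 7.26e-06). PCDHB9 was at 2.21, 1.74, 2.56 and 1.78 FPKM in the WT libraries, 1.9, 1.94, 1.64 and 1.97 with TWEAK, 2.43, 1.98, 1.77 and 2.32 in Fn14alpha KO and 0.622, 0.593, 0.611 and 0.654 in Fn14 KO libraries. PCDHB10 was at 0.893, 1.1, 1.36 and 1.13 FPKM in the WT libraries, 1.02, 1.41, 1.05 and 1.18 with TWEAK, 1.25, 1.04, 1.33 and 1.12 in Fn14alpha KO and 0.264, 0.536, 0.28 and 0.438 in Fn14 KO libraries. PCDHB9 lay above PCDHB10 in every WT library, and they fell 3.07-fold in the Fn14 knockout (log2 fold change −1.62 ± 0.15, adjusted p = 2.83e-09) and 2.69-fold in the Fn14 knockout (log2 fold change −1.43 ± 0.21, adjusted p = 4.3e-06). In the Fn14alpha knockout the log2 fold changes of PCDHB2, PCDHB3, PCDHB9 and PCDHB10 were −0.015, 0.31, 0.007 and 0.04 (adjusted p 0.934, 0.218, 0.972 and 0.87). PCDHB4 and PCDHB7 fell in both knockouts. PCDHB4 was at 2.8, 3, 2.69 and 2.4 FPKM in the WT libraries, 1.79, 2.74, 2.27 and 2.17 with TWEAK, 1.22, 1.26, 1.39 and 1.88 in Fn14alpha KO and 0.492, 0.336, 0.354 and 0.462 in Fn14 KO libraries. PCDHB7 was at 0.787, 0.602, 0.93 and 0.699 FPKM in the WT libraries, 0.53, 0.674, 0.574 and 0.561 with TWEAK, 0.297, 0.331, 0.261 and 0.52 in Fn14alpha KO and 0.0895, 0.212, 0.0759 and 0.0336 in Fn14 KO libraries. The Fn14alpha knockout libraries lay between WT and the Fn14 knockout. PCDHB4 fell 1.93-fold in the Fn14alpha knockout (log2 fold change −0.95 ± 0.14, adjusted p = 1.05e-05) and 6.09-fold in the Fn14 knockout (log2 fold change −2.61 ± 0.18, adjusted p = 9.55e-12), and PCDHB7 fell 2.18-fold in the Fn14alpha knockout (log2 fold change −1.12 ± 0.27, adjusted p = 0.00152) and 6.55-fold in the Fn14 knockout (log2 fold change −2.71 ± 0.33, adjusted p = 2.21e-07).

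In PCDHB11, PCDHB12, PCDHB13 and PCDHB14 the Fn14alpha knockout had the lowest mean of the 4 groups. PCDHB12 was at 1.84, 1.57, 1.58 and 1.59 FPKM in the WT and 1.43, 1.25, 1.53 and 1.18 in the TWEAK libraries. PCDHB12 stood at 0.86, 0.563, 1.17 and 1.23 FPKM in Fn14alpha KO and at 2.16, 1.74, 2 and 2.62 in Fn14 KO libraries. PCDHB12 fell 1.75-fold in the Fn14alpha knockout (log2 fold change −0.81 ± 0.18, adjusted p = 0.000744), with all 4 libraries below WT, and rose 1.4-fold in the Fn14 knockout (log2 fold change 0.49 ± 0.16, adjusted p = 0.013), with overlapping libraries. The rise was lost without Fn14 KO 4 (0.38), with total counts (0.37) and in both limma fits (0.34 and 0.24). PCDHB14 was at 2.95, 2.67, 3.31 and 2.58 FPKM in the WT and 2.38, 2.66, 2.73 and 2.99 in the TWEAK libraries. PCDHB14 stood at 1.66, 1.61, 1.5 and 1.4 FPKM in Fn14alpha KO and at 1.5, 1.64, 1.67 and 1.73 in Fn14 KO libraries. PCDHB14 fell 1.91-fold in the Fn14alpha knockout (log2 fold change −0.93 ± 0.11, adjusted p = 2.33e-07) and 1.62-fold in the Fn14 knockout (log2 fold change −0.69 ± 0.11, adjusted p = 7.04e-06), and the knockouts overlapped. PCDHB15 was at 2.38, 2.74, 2.71 and 2.49 FPKM in the WT and 1.93, 2.44, 2.15 and 2.1 in the TWEAK libraries. PCDHB15 stood at 3.98, 3.83, 2.79 and 3.14 FPKM in Fn14alpha KO and at 1.8, 1.86, 2.16 and 2.2 in Fn14 KO libraries. PCDHB15, the last gene of the cluster, was the only beta gene tested to rise there, 1.3-fold in the Fn14alpha knockout (log2 fold change 0.38 ± 0.12, adjusted p = 0.0105), a call lost without Fn14alpha KO 1 (0.30), and was −0.25 ± 0.12 on the log2 scale in the Fn14 knockout (adjusted p = 0.0858). Between the knockouts PCDHB11, PCDHB12 and PCDHB13 were higher in the Fn14 knockout (log2 fold changes of 1.33 ± 0.38, 1.30 ± 0.17 and 1.01 ± 0.10, adjusted p 0.00434, 7.47e-07 and 1.16e-08), and PCDHB15 was lower (−0.63 ± 0.12, adjusted p = 7.61e-05). PCDHB11 was at 0.605, 0.653, 0.228 and 0.179 FPKM in the WT and 0.333, 0.398, 0.318 and 0.324 in the TWEAK libraries. PCDHB11 stood at 0.251, 0.122, 0.267 and 0.112 FPKM in Fn14alpha KO and at 0.337, 0.409, 0.63 and 0.361 in Fn14 KO libraries. WT 1 and 2 were high and WT 3 and 4 low for PCDHB11, and its fall 2.23-fold in the Fn14alpha knockout (log2 fold change −1.16 ± 0.38, adjusted p = 0.0174) was lost without WT 1, WT 2, Fn14alpha KO 2 or Fn14alpha KO 4 (−1.01 to −0.83) and with limma on log2(FPKM + 1) (adjusted p = 0.0555). PCDHB18P was at 0.307, 0.519, 0.554 and 0.487 FPKM in the WT and 0.579, 0.332, 0.276 and 0.328 in the TWEAK libraries. PCDHB18P stood at 0.225, 0.478, 0.152 and 0.377 FPKM in Fn14alpha KO and at 0.0628, 0.248, 0.266 and 0.157 in Fn14 KO libraries. PCDHB18P, a pseudogene, fell 2.34-fold in the Fn14 knockout (log2 fold change −1.23 ± 0.38, adjusted p = 0.00872). PCDHB1 had 1 count in all libraries and PCDHB19P 56.

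**Figure D4:**
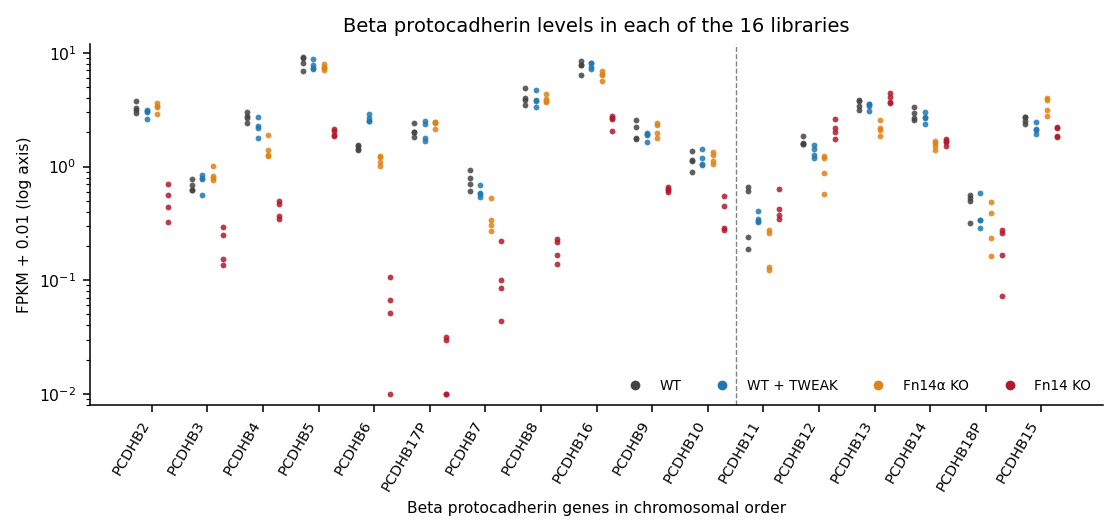
FPKM + 0.01 on the vertical log axis for the 17 tested beta genes in chromosomal order on the horizontal axis, 1 point per library, coloured by group, with a dashed line between PCDHB10 and PCDHB11. Left of the line the Fn14 knockout points lie below the other groups in each gene, with PCDHB8 at 0.177 FPKM on average against 4.07 in WT, and right of it PCDHB13 is at 3.94 against 3.53.

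TWEAK changed 0 of the 17 gamma genes tested by edgeR and 0 by DESeq2, with 0 at an unadjusted p under 0.05, and their median log2 fold change was 0.24. In the Fn14alpha knockout 4 rose and 4 fell (median 0.06), where 20.0% of all genes rose and 22.2% fell. In the Fn14 knockout 3 rose and 5 fell (median −0.34), where 26.6% of all genes rose and 26.3% fell. WT 4 and Fn14 KO 1, the 2 libraries that stood apart, held the lowest value of their group for 14 and 13 of the 17 gamma genes. The same count over all genes was not made. The calls that end without either library are named with their values. PCDHGC3 was at 8.41, 9.71, 7.97 and 4.45 FPKM in the WT and 7.3, 8.24, 9.01 and 6.81 in the TWEAK libraries. PCDHGC3 stood at 6.28, 5.2, 5.32 and 5.2 FPKM in Fn14alpha KO and at 3.33, 5.71, 5.88 and 6.15 in Fn14 KO libraries. PCDHGC3, the most abundant gamma gene and one of the C type genes found at the end of the cluster, was lowest in WT 4 among the WT and in Fn14 KO 1 among the Fn14 knockout libraries. It was −0.42 ± 0.19 on the log2 scale in the Fn14 knockout (adjusted p = 0.0755), and its fall 1.42-fold in the Fn14alpha knockout (log2 fold change −0.50 ± 0.19, adjusted p = 0.0417) was lost without WT 1, 2 or 3, Fn14alpha KO 2, 3 or 4 or Fn14 KO 4 (−0.50 to −0.36). DESeq2, total counts, no filter and both limma fits also ended it (−0.52 to −0.37, adjusted p 0.0576 to 0.17).

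PCDHGA4 and PCDHGB5 were higher in the Fn14alpha knockout than in WT and lower in the Fn14 than in the Fn14alpha knockout. PCDHGA4 was at 0.846, 0.775, 0.751 and 0.242 FPKM in the WT and 0.758, 0.747, 0.878 and 0.69 in the TWEAK libraries. PCDHGA4 stood at 1.74, 1.76, 1.48 and 1.51 FPKM in Fn14alpha KO and at 0.356, 0.436, 0.305 and 0.552 in Fn14 KO libraries. Even the highest WT library was below all Fn14alpha knockout libraries, and PCDHGA4 rose 2.43-fold in the Fn14alpha knockout (log2 fold change 1.28 ± 0.22, adjusted p = 4.4e-05). It was −0.53 ± 0.26 on the log2 scale in the Fn14 knockout (adjusted p = 0.0893), and it was 3.51-fold lower in the Fn14 than in the Fn14alpha knockout (log2 fold change −1.81 ± 0.23, adjusted p = 4.92e-07). PCDHGB5 was at 1.72, 1.81, 1.67 and 1.12 FPKM in the WT and 1.53, 2.21, 2.04 and 1.64 in the TWEAK libraries. PCDHGB5 stood at 2.73, 2.25, 1.98 and 2.08 FPKM in Fn14alpha KO and at 0.383, 0.686, 0.668 and 0.526 in Fn14 KO libraries. The Fn14 knockout libraries of PCDHGB5 were the lowest 4, and it fell 2.56-fold in the Fn14 knockout (log2 fold change −1.36 ± 0.19, adjusted p = 1.28e-06). Its rise 1.4-fold in the Fn14alpha knockout (log2 fold change 0.49 ± 0.16, adjusted p = 0.0144) was lost without WT 4 (0.36) or Fn14alpha KO 1 (0.38).

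PCDHGA1 and PCDHGA7 fell in the Fn14 knockout. PCDHGA1 was at 0.378, 0.423, 0.622 and 0.346 FPKM in the WT and 0.503, 0.421, 0.31 and 0.357 in the TWEAK libraries. PCDHGA1 stood at 0.321, 0.219, 0.32 and 0.319 FPKM in Fn14alpha KO and at 0.202, 0.174, 0.18 and 0.249 in Fn14 KO libraries. PCDHGA1, the first gamma gene, had all its Fn14 knockout libraries below WT and fell 2.02-fold in the Fn14 knockout (log2 fold change −1.01 ± 0.23, adjusted p = 0.000756). Its fall 1.53-fold in the Fn14alpha knockout (log2 fold change −0.61 ± 0.22, adjusted p = 0.0291) was lost without WT 3 or Fn14alpha KO 2 (−0.50 to −0.40). PCDHGA7 was at 2.78, 3.07, 2.55 and 1.49 FPKM in the WT and 2.08, 2.51, 2.62 and 2.34 in the TWEAK libraries. PCDHGA7 stood at 2.56, 2.45, 2.22 and 1.91 FPKM in Fn14alpha KO and at 0.615, 1.55, 1.24 and 1.56 in Fn14 KO libraries. For PCDHGA7, WT 4 lay within the Fn14 knockout values, and it fell 1.83-fold in the Fn14 knockout (log2 fold change −0.87 ± 0.22, adjusted p = 0.00241). PCDHGB4 was at 2.6, 2.96, 2.44 and 2.11 FPKM in the WT and 2.67, 2.96, 3.26 and 2.52 in the TWEAK libraries. PCDHGB4 stood at 2.29, 2.07, 2.44 and 2.2 FPKM in Fn14alpha KO and at 1.26, 1.91, 2 and 2.11 in Fn14 KO libraries. PCDHGB4 fell 1.28-fold in the Fn14 knockout (log2 fold change −0.35 ± 0.13, adjusted p = 0.0219), lost without WT 2 or Fn14 KO 1 (−0.28 to −0.22) and in a fit of the 2 groups alone (−0.36, adjusted p = 0.0549). PCDHGC5 was at 0.223, 0.177, 0.352 and 0.111 FPKM in the WT and 0.158, 0.158, 0.226 and 0.179 in the TWEAK libraries. PCDHGC5 stood at 0.13, 0.145, 0.166 and 0.12 FPKM in Fn14alpha KO and at 0.0133, 0.121, 0.0847 and 0.125 in Fn14 KO libraries. Fn14 KO 1 held the lowest value of PCDHGC5, and its fall 2.25-fold in the Fn14 knockout (log2 fold change −1.17 ± 0.41, adjusted p = 0.0175) was lost without WT 3 or Fn14 KO 1 (−0.83 in each).

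PCDHGA11 was at 2.95, 2.91, 2.26 and 1.63 FPKM in the WT and 2.08, 2.73, 2.81 and 2.56 in the TWEAK libraries. PCDHGA11 stood at 1.51, 1.67, 1.49 and 1.75 FPKM in Fn14alpha KO and at 1.23, 2.17, 1.72 and 1.97 in Fn14 KO libraries. PCDHGA11 fell 1.55-fold in the Fn14alpha knockout (log2 fold change −0.64 ± 0.17, adjusted p = 0.00396) with WT 4 near the Fn14alpha knockout values, and was −0.34 ± 0.16 on the log2 scale in the Fn14 knockout (adjusted p = 0.0898). PCDHGB2 was at 1.11, 1.17, 1.1 and 0.569 FPKM in the WT and 1.07, 1.05, 1.3 and 1.17 in the TWEAK libraries. PCDHGB2 stood at 1.43, 0.877, 0.912 and 0.961 FPKM in Fn14alpha KO and at 0.375, 0.974, 1.08 and 0.952 in Fn14 KO libraries. PCDHGB2 changed in no comparison, and WT 4 and Fn14 KO 1 held its lowest values. PCDHGB3 was at 0.47, 0.471, 0.172 and 0.156 FPKM in the WT and 0.374, 0.306, 0.211 and 0.267 in the TWEAK libraries. PCDHGB3 stood at 0.164, 0.107, 0.131 and 0.211 FPKM in Fn14alpha KO and at 0.126, 0.281, 0.223 and 0.328 in Fn14 KO libraries. Its WT libraries fell into a high and a low pair, and the fall 2.08-fold in the Fn14alpha knockout (log2 fold change −1.06 ± 0.38, adjusted p = 0.0269) was lost without WT 1, WT 2, Fn14alpha KO 2 or Fn14alpha KO 3 (−0.99 to −0.79) and in both limma fits (adjusted p 0.0667 and 0.0633). PCDHGA9 was at 0.0858, 0.169, 0.0646 and 0.127 FPKM in the WT and 0.0675, 0.135, 0.18 and 0.184 in the TWEAK libraries. PCDHGA9 stood at 0.147, 0.223, 0.37 and 0.315 FPKM in Fn14alpha KO and at 0.082, 0.174, 0.116 and 0.269 in Fn14 KO libraries. PCDHGA9 rose 2.26-fold in the Fn14alpha knockout (log2 fold change 1.18 ± 0.39, adjusted p = 0.0187), lost without WT 1, WT 3, Fn14alpha KO 3 or Fn14alpha KO 4 (0.97 to 1.08). PCDHGB1 was at 0.0734, 0.124, 0.172 and 0.0652 FPKM in the WT and 0.194, 0.139, 0.0793 and 0.141 in the TWEAK libraries. PCDHGB1 stood at 0.0822, 0.0915, 0.146 and 0.183 FPKM in Fn14alpha KO and at 0.014, 0.0511, 0.0595 and 0.0789 in Fn14 KO libraries. PCDHGB1 was low in all groups and passed the test only between the knockouts (adjusted p = 0.0492), a call lost with the replicate block and without any 1 of 10 libraries: WT 1 or 2, TWEAK 1, 2 or 4, Fn14alpha KO 3 or 4, or Fn14 KO 1, 2 or 3 (−1.20 to −0.83). DESeq2 and no filter also ended it (adjusted p 0.0605 and 0.11).

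The other gamma genes tested had group means of 0.0761 to 0.584 FPKM. PCDHGA6 rose 1.69-fold in the Fn14 knockout (log2 fold change 0.75 ± 0.19, adjusted p = 0.00143), with all its Fn14 knockout libraries above WT. PCDHGB6 rose in both knockouts (log2 fold changes of 0.68 ± 0.24 and 0.66 ± 0.24, adjusted p = 0.0247 in each). The calls of PCDHGB6 were lost without WT 1, WT 4, Fn14alpha KO 2 or Fn14alpha KO 3 in the Fn14alpha knockout (0.54 to 0.63) and without WT 1, WT 4, Fn14 KO 2 or Fn14 KO 4 in the Fn14 knockout (0.52 to 0.64). The first was also lost with no filter (adjusted p = 0.0542), and the other with total counts (0.0609) and in both limma fits (0.0503 and 0.0622). PCDHGA5 rose 1.59-fold in the Fn14 knockout (log2 fold change 0.67 ± 0.28, adjusted p = 0.0441), lost without any 1 of 7 libraries: WT 1, 2 or 4, TWEAK 2, Fn14alpha KO 3, or Fn14 KO 2 or 3 (0.41 to 0.69). That call was also lost with the replicate block (0.67, adjusted p = 0.0588), by DESeq2 (0.66, adjusted p = 0.0622), with total counts, no filter, both limma fits and a fit of the 2 groups alone (adjusted p 0.0737 to 0.103). PCDHGA10 passed only between the knockouts (adjusted p = 0.0412), lost without Fn14alpha KO 1 or 2 or any Fn14 knockout library (−0.90 to −0.45). It was also lost with the replicate block (−0.81, adjusted p = 0.0637), by DESeq2 (−0.86, adjusted p = 0.0706) and with no filter (−0.82, adjusted p = 0.132). PCDHGA8 changed in no comparison. Position in the gamma cluster and log2 fold change in the Fn14 knockout had a Spearman's rho of 0.05 over the 17 genes.

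**Figure D5:**
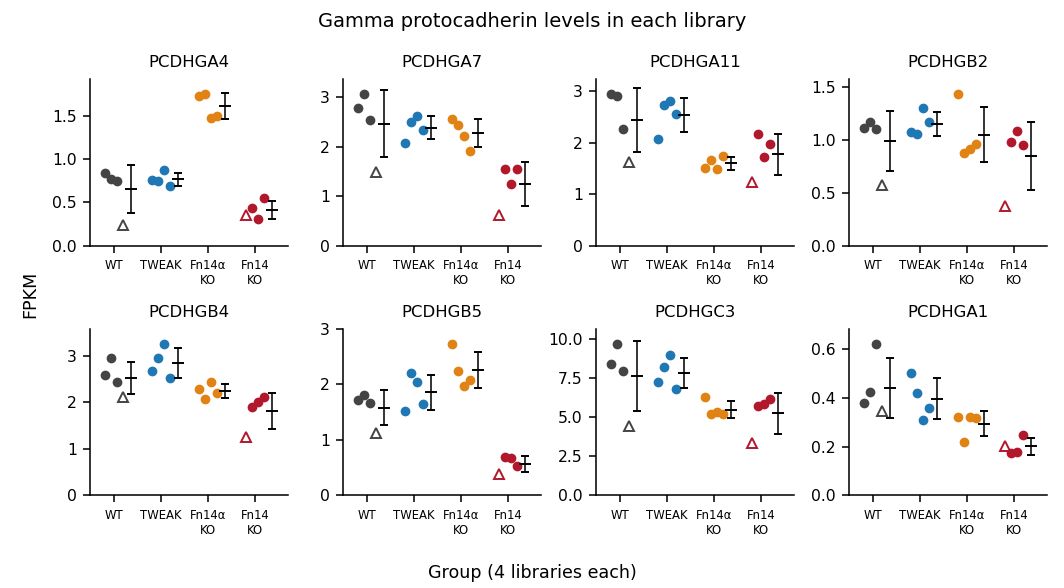
FPKM of 8 tested gamma genes on the vertical axis (linear, from 0) by group on the horizontal axis, 1 point per library and a bar for mean ± SD (n = 4), with WT 4 and Fn14 KO 1 as open triangles. PCDHGB5 falls from 1.58 FPKM in WT to 0.566 in the Fn14 knockout, and in PCDHGC3 the triangles are at 4.45 and 3.33, the lowest of their groups.

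The partners and regulators of these genes were taken from lists, with counts over the members tested. Of all genes, 6.87% changed with TWEAK, 42.2% in the Fn14alpha knockout (20.0% higher, 22.2% lower) and 52.9% in the Fn14 knockout (26.6% higher, 26.3% lower), and the counts of these short lists are a description beside those shares. Where TWEAK changed 0 genes of a list by edgeR, DESeq2 also called 0, and the unadjusted p was under 0.05 for 4 genes of the catenin list, 1 desmosome gene, 2 other superfamily genes, 0 proteases and 2 cluster regulators. Catenins tie classical cadherins to actin, and their list also held VCL and AFDN, which are not catenins. Of its 8 tested genes, 0 changed with TWEAK, 2 rose and 4 fell in the Fn14alpha knockout, and 4 rose and 1 fell in the Fn14 knockout. Beta-catenin (CTNNB1) was at 24.0 ± 2.34 FPKM in WT and 37.5 ± 2.28 in the Fn14 knockout (log2 fold change 0.76 ± 0.07, adjusted p = 9.33e-10), and p120-catenin (CTNND1), which holds cadherins at the membrane, rose by 0.61 ± 0.08 (adjusted p = 1.49e-06). ARVCF rose in Fn14alpha KO cells by 0.84 ± 0.12 and CTNNAL1 fell by 0.63 ± 0.09 (adjusted p 2.46e-06 and 5.35e-06). Of 7 tested desmosome genes, 0 changed with TWEAK, 2 rose in the Fn14alpha knockout, and 2 rose and 1 fell in the Fn14 knockout. Desmoplakin (DSP) was at 0.292 ± 0.019 FPKM in WT and 1.04 ± 0.21 in the Fn14alpha knockout (1.81 ± 0.14, adjusted p = 2.65e-10).

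Of 13 tested genes of the other cadherin superfamily branches, 0 changed with TWEAK, 6 rose and 1 fell in the Fn14alpha knockout, and 1 rose and 6 fell in the Fn14 knockout. Their median log2 fold changes were 0.42 and −0.36 in the 2 knockouts. The planar polarity cadherin CELSR1 was at 1.41 ± 0.27 FPKM in WT and 0.338 ± 0.050 in the Fn14 knockout (−1.94 ± 0.13, adjusted p = 1.04e-11), and CLSTN3 fell there by 1.25 ± 0.10 (adjusted p = 3.36e-10). DCHS1, a large cadherin that binds FAT4, and CELSR2 rose in the Fn14alpha knockout by 1.85 ± 0.13 and 1.28 ± 0.12 (adjusted p 1.15e-10 and 8.96e-09). Of 11 tested transcription factors of epithelial-mesenchymal transition, 3 rose and 1 fell with TWEAK, 1 rose and 4 fell in the Fn14alpha knockout, and 6 rose and 2 fell in the Fn14 knockout. FOXC2 rose by 0.79 ± 0.10 with TWEAK, by 1.16 ± 0.10 in the Fn14alpha and by 1.76 ± 0.10 in the Fn14 knockout (adjusted p 4.12e-06, 9.31e-10 and 1.65e-13), and TWIST1 rose by 0.80 ± 0.08 in the Fn14 knockout (adjusted p = 1.14e-08).

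Of 11 tested proteases that shed or cleave cadherins, 0 changed with TWEAK, 5 rose and 1 fell in the Fn14alpha knockout, and 2 rose and 4 fell in the Fn14 knockout. ADAM17 fell by 0.89 ± 0.11 in the Fn14 knockout (adjusted p = 1.46e-07), and MMP14 fell in both knockouts, by 0.84 ± 0.06 and 0.54 ± 0.06 (adjusted p 2.96e-11 and 2.55e-08). Of 18 tested genes that shape or silence the protocadherin clusters, such as CTCF, cohesin and DNA methyltransferases, 0 changed with TWEAK. In the Fn14alpha knockout 2 rose (20.0% of all genes) and 2 fell (22.2% of all genes). In the Fn14 knockout 7 rose (26.6% of all genes) and 1 fell (26.3% of all genes). CTCF was at 9.85 ± 0.32 FPKM in WT, 9.92 ± 0.56 with TWEAK, 10.3 ± 0.44 in Fn14alpha KO and 10 ± 0.89 in Fn14 KO cells. DNMT3A, which sets new DNA methylation, fell by 0.70 ± 0.09 and SETDB1 rose by 0.59 ± 0.08 in the Fn14 knockout (adjusted p 9.79e-07 and 6.02e-07), and the cohesin genes SMC1A and STAG2 each fell by 0.77 in the Fn14alpha knockout (adjusted p 1.15e-08 and 2.22e-08). Of 5 nectins and nectin-like receptors, which join cells beside cadherins, 1 rose and 1 fell with TWEAK, 2 rose and 2 fell in the Fn14alpha knockout, and 1 rose and 4 fell in the Fn14 knockout. NECTIN4 fell in both knockouts, by 3.01 ± 0.40 and 1.96 ± 0.35 (adjusted p 1.52e-06 and 4.62e-05). With TWEAK the nectin calls were PVR (−0.26 ± 0.06, adjusted p = 0.0105, lost without TWEAK 4 at −0.22) and NECTIN2 (0.23 ± 0.06, adjusted p = 0.0271, lost without WT 1, TWEAK 2, TWEAK 3 or TWEAK 4 at 0.21 to 0.24 and with total counts, no filter or limma, adjusted p 0.0553 to 0.0933).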

How the data were processed

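Poly(A) RNA from 16 LX-2 libraries, 4 per group, was sequenced, and the authors deposited 1 table with raw counts and FPKM per gene for each library, per the file headers. The submitters' processing notes name HTSeq 0.6.1, HISAT2 2.0.1, FastQC 0.10.1, cutadapt 1.9.1, DESeq2 and the builds GRCh38.p13 and hg38, with no roles. The annotation release, strandedness and handling of reads that match several places are, in the sources used here, not given. The FPKM printed for members were recomputed unrounded from the deposited counts, gene sizes and count totals, and differ from the authors' FPKM by at most 0.005. Positions of genes come from that table.

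Counts were tested in edgeR 4.0.16 (R 4.3.3) with filterByExpr, TMM scaling and the quasi-likelihood test, 1 model over 4 groups without a replicate block, 16029 genes and a Benjamini-Hochberg adjusted p of 0.05. The SE is the size of the log2 fold change divided by the square root of F. A gene at 0 counts in a group is bounded by 3 counts over that group, and one at 1 to 3 counts has an exact 95% interval, both for counting error only. Alternatives used DESeq2 1.42.0, limma 3.58.1 on log2(FPKM + 0.1) or log2(FPKM + 1), other scalings and filters, the replicate block and each library left out. On counts simulated for the Fn14 knockout against WT over 16029 genes, edgeR recovered 36 of 50 changes of 1.5-fold, 43 of 50 of 2-fold, 49 of 50 of 3-fold and 49 of 50 of 4-fold. Each gene was simulated with 1 common dispersion (0.0075), a setting of spread between replicates, and only the planted changes differed between groups. The data differ in both, so these rates do not measure recovery for the members. Tables and figures were made in Python 3.11.15 with numpy 2.4.6, pandas 2.3.3, scipy 1.17.1 and matplotlib 3.10.9.

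Replicate pairs of a group differed by a chi-square of 2.30 to 39.0 per degree of freedom, so each library counted once. Per-library values are given for each tested gene with a group mean of at least 1 FPKM or a called change of at least 1 on the log2 scale, and up to 2 called genes are named per list and comparison. The genes and lists were chosen with earlier results of these data known.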

Additional observations from a re-analysis of the deposited data

Results flagged for a closer look

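In 183 groups of 4 libraries, the highest or lowest library was compared with the rest by Dixon's ratio (critical value 0.829). Chance passes this in about 1 of 20 groups, and 9 values passed, which is near that rate. Of the gamma genes, PCDHGA4 was at 0.242 FPKM in WT 4 (others 0.751 to 0.846), PCDHGB2 at 0.569 FPKM in WT 4 (1.1 to 1.17), and PCDHGC3 at 3.33 FPKM in Fn14 KO 1 (5.71 to 6.15). These are the libraries that stood apart on component 3. In Fn14alpha KO 1, PCDHGB2 was at 1.43 FPKM (0.877 to 0.961) and PCDHGC3 at 6.28 FPKM (5.2 to 5.32), and PCDHGA1 was at 0.219 FPKM in Fn14alpha KO 2 (0.319 to 0.321). The other flags were PCDHB12 at 1.84 FPKM in WT 1 (1.57 to 1.59), PCDH7 at 0.918 FPKM in Fn14 KO 3 (1.08 to 1.1) and CDH18 at 1.23 FPKM in TWEAK 2 (0.907 to 0.925).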

How the results depend on the processing

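The counts of members called (3 with TWEAK, 30 in the Fn14alpha knockout, 38 in the Fn14 knockout and 36 between the knockouts) stayed within 1.5 times under each of the 26 alternatives. Leaving out 1 library gave 2 to 3, 23 to 32, 36 to 40 and 31 to 37 calls. Over all genes these fits called 759 to 1604, 6038 to 7471, 8012 to 8867 and 8937 to 9852. The filter was run anew whenever libraries were left out, with 16259 to 16312 genes tested here. With the replicate number as a block the counts were 3, 29, 37 and 34, and those over all 16029 genes were 893, 6454, 8205 and 9241. Samples with the same number correlated by −0.228 to 0.108 in their deviations from the group means, and those with different numbers by up to 0.336. The numbers thus showed no pairing here, while how the replicates were made is not stated. Leaving out WT 4 and Fn14 KO 1 together gave 3, 33, 41 and 38 calls. Over all 16219 genes tested in that fit the calls were 1353, 7226, 8907 and 10031. In the main fit they were 1101, 6771, 8472 and 9489 of 16029. Of 107 called results for members, 78 kept their call under every alternative run, 29 lost it under at least 1 and 0 reversed. Of these, 26 lost it on leaving out a single library: 1 with TWEAK, 12 in the Fn14alpha knockout, 7 in the Fn14 knockout and 6 between the knockouts. The 38 members that were not tested had at most 103 counts each over the 16 libraries, and counts of alpha genes were low as well. What part low levels and exons shared between genes have in this was not tested.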
